A study of Mus musculus with 9 samples.

Results

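The extracellular matrix genes described here are the 60 protein-coding genes of the collagen, laminin and lysyl oxidase families. They are picked out by symbol, as every collagen alpha chain (44 genes), every laminin chain (11 genes) and the 5 lysyl oxidases, out of 54532 genes in the deposited table, 22046 of them protein coding. The collagens are taken apart into 11 fibrillar chains, 10 chains of basement membranes, 6 Col6 chains and 17 others. The series holds 9 RNA-seq libraries from total RNA of mouse intestine, in 3 groups of 3. Animals of the IR+LYC group were gavaged over 10 days with the carotenoid lycopene in corn oil, 10 mg/kg daily, and had 12 Gy to the whole abdomen on day 4. The IR group had corn oil and the same irradiation, and the control group had corn oil alone, so that the vehicle is common to all groups. Tissue was taken at the end of the experiment, and a group given lycopene alone is not analysed here. The labels give neither strain, sex, age nor gut segment. Nor do they state whether each library is 1 mouse, so a p-value here measures only the spread between samples, which may be technical.

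Collagens are trimers wound from alpha chains, modified in the endoplasmic reticulum and assembled outside the cell into fibrils, networks or filaments. Fibrillar collagens carry tensile load in the submucosa and muscle coats of the gut, while type IV collagen and laminin trimers form the sheets of basement membrane under the epithelium and around vessels and smooth muscle cells. Lysyl oxidases oxidise lysines of collagen and elastin, which then crosslink. Fibroblasts and smooth muscle cells make most fibrillar collagen of the gut wall, and collagen accumulation is a known late consequence of radiation to the bowel.

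Each library held 17803889 to 22414949 reads, as recovered from the deposited FPKM (reads scaled by gene length and library), and the 60 genes took 0.129 to 0.475% of them. The tissue label held against the markers of its cell types. Summed over 10 genes each, epithelial markers were at 4313 to 8119 FPKM and enterocyte markers at 406 to 12574 FPKM. Of 8 exocrine pancreas genes only Cela1, at 2.96 to 8.56 FPKM, was high enough to be tested. The highest of the others was Ctrb1, at up to 0.249 FPKM, and Cela3b was at 0 in all libraries. Of 6 skeletal muscle genes 3 were tested, among them Ckm at 1.33 to 7.13 FPKM. Myh4 was at 0 in all libraries and Myh1 reached 0.0103 FPKM. The IR+LYC libraries differed most among themselves. IR+LYC 2 was the lowest of the 9 libraries for 30 of the 43 members tested, against 17.8% of all genes tested, and IR 2 was the highest for 17 of them, against 11.3%. IR+LYC 1 was the highest for 13, against 21.2%. Results that rest on IR+LYC 2 are therefore given with and without it.

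The collagen, laminin and lysyl oxidase genes were higher in IR than in control in most families, and lower in IR+LYC than in IR, but none passed the test over all genes. The 60 genes summed to 479, 195 and 302 FPKM in IR+LYC libraries 1 to 3, to 386, 494 and 414 FPKM in IR, and to 279, 272 and 274 FPKM in control. All IR libraries lay above all controls, while IR+LYC ran from below the lowest control to near the highest IR library. The fibrillar chains gave the widest spread, with 189, 53.0 and 103 FPKM in IR+LYC, 126, 186 and 137 FPKM in IR, and 77.0, 82.1 and 71.9 FPKM in control. Laminins were narrower, with 57.5, 32.1 and 41.9 FPKM in IR+LYC, 49.3, 56.5 and 49.9 FPKM in IR, and 39.8, 39.9 and 43.4 FPKM in control.

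**Figure D1:**
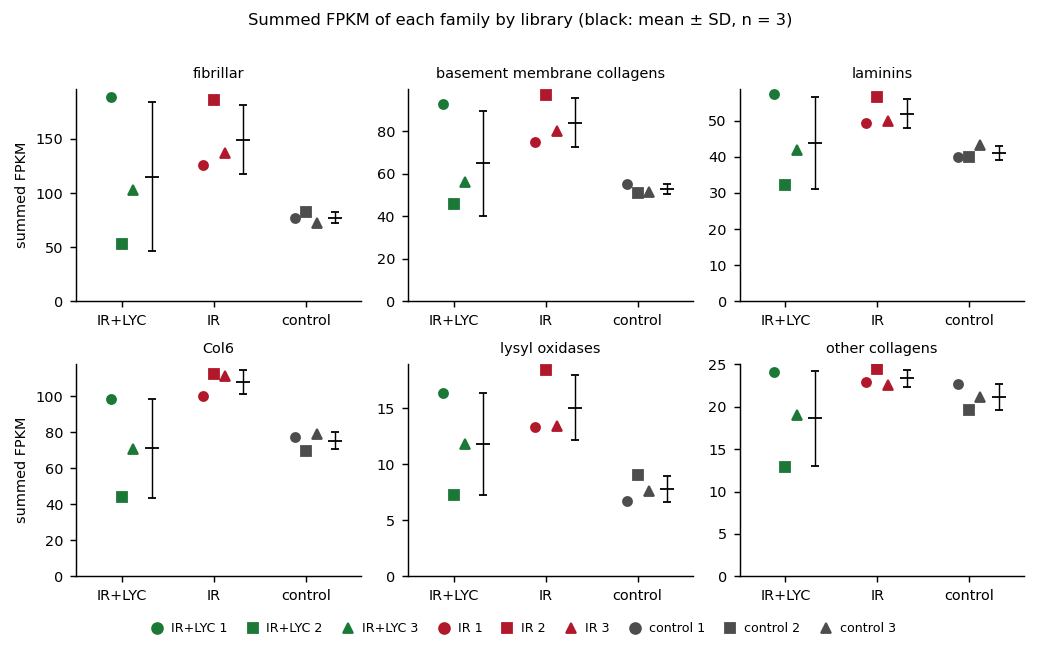
Summed FPKM of each family (vertical axis, from 0) in each library of IR+LYC, IR and control, with the mean and SD of 3 libraries beside the points. In all families except the other collagens the 3 IR libraries lie above the 3 controls, and IR+LYC 2 is the lowest IR+LYC library in every panel.

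Markers of the cells that make these genes also varied between libraries, though not in step with them in every library. The 12 smooth muscle markers summed to 3021, 604 and 2005 FPKM in IR+LYC, to 1902, 1682 and 1425 FPKM in IR, and to 687, 789 and 888 FPKM in control, and 11 of the 12 had every IR library above every control. Hhip was the exception, with every IR library below. Over all genes, 14.1% lay above in this sense and 14% below. The 10 fibroblast markers, of which Dcn, Dpt and Lum are also in a pathway list below, summed to 183, 52.8 and 150 FPKM in IR+LYC, to 135, 182 and 110 FPKM in IR, and to 96.3, 102 and 99.2 FPKM in control. Of the 9 fibroblast markers tested, 5 had every IR library above every control and 0 below, against 14.1% and 14% of all genes. In IR+LYC 3 the smooth muscle sum was above every IR library, while the fibrillar sum there, 103 FPKM, was below every IR library. The smooth muscle and fibroblast sums were both lowest in IR+LYC 2 and highest in IR+LYC 1. Enterocyte markers ran the other way in those libraries, with 406, 12574 and 1550 FPKM in IR+LYC, 4671, 836 and 6198 FPKM in IR, and 10295, 6097 and 6561 FPKM in control. Endothelial markers summed to 94.2 to 130 FPKM and leukocyte markers to 67.2 to 156 FPKM, with groups that overlapped. The part of these cell types in the matrix differences was not tested, and in bulk tissue fewer cells of a type and less RNA per cell cannot be told apart.

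**Figure D2:**
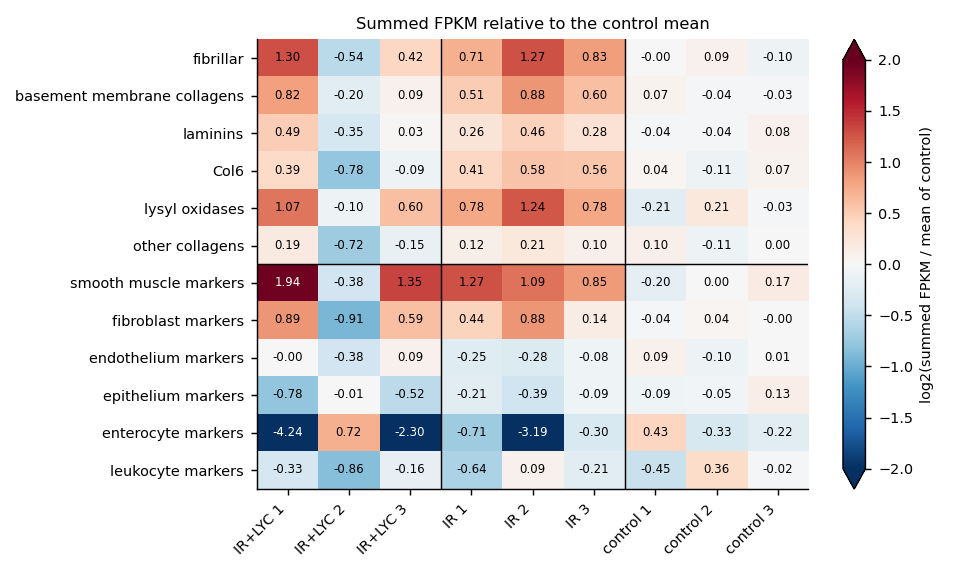
Summed FPKM of each matrix family (above the line) and of 6 marker lists (below it) in each library, as log2 of the sum over the control mean, with colour running from lower (blue) to higher (red). IR+LYC 1 and IR 2 are the reddest columns for fibrillar collagens, at 1.30 and 1.27, and IR+LYC 2 is at -0.54, where smooth muscle markers are at -0.38 and enterocyte markers at 0.72.

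Differences were tested on log2(FPKM + 1) with limma in 1 fit of the 3 groups, over the 15391 genes that reached 0.5 FPKM in at least 3 libraries, with Benjamini-Hochberg adjusted p under 0.05 as the threshold. Of the 60 members 43 entered. The other 17 were untested, with 0.707 FPKM as their highest value in any library. In IR against control 0 of 43 members were called, against 3 of all genes (0.0195%). At an unadjusted p under 0.05, 14 members were higher in IR (3.9% of all genes) and 1 was lower (4.44% of all genes). Lama1 is among the 14, although it passed the minimum level only in the IR libraries. The higher count was 4 without IR 2 or control 3, 6 without control 1, 7 without control 2, 8 without IR 3 and 22 without IR+LYC 2. Over all 15391 genes, in both directions together, the count was 764, 808, 928, 951, 1112 and 2737 in the same order, against 1284 with all libraries. In 23 of the 43 members every IR library lay above every control, against 14.1% of all genes, and in 2 every IR library lay below, against 14%. The median log2 difference was 0.31 for the members and -0.01 for all genes, and it was above 0 for 38 of 43 members and for 48.1% of all genes. limma-voom on the recovered reads likewise called 0 members and 0 genes in all.

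Since a minimum level can favour genes that are high in 1 group, the same counts were taken by level and over all 60 genes. Of the 16 members that averaged at least 5 FPKM over the 9 libraries, 12 had every IR library above every control and 0 had the reverse. Of the 27 tested members below that level, 11 were higher and 2 lower in this sense. Over all 60 members 26 were higher and 3 lower. The shares of all genes at these levels were not taken, and the 14.1% and 14% above are over all tested genes. These counts by level therefore describe the members only. Among the lowly expressed, Lama1 passed the minimum only in the 3 IR libraries, and Col8a1 and Col9a2 passed it in 4 libraries, none of them controls.

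In the comparison with irradiation alone, 0 of 43 members were called in IR+LYC against IR, and 0 of all genes (0%). At an unadjusted p under 0.05, 13 members were lower in IR+LYC (1.99% of all genes) and 0 were higher (2.26% of all genes). The 13 include Lama1, which passed the minimum level only in the IR libraries. The lower count was 27 without IR+LYC 1, 6 without IR 2, 7 without IR 3 or IR+LYC 2, and 8 without IR 1, IR+LYC 3 or control 3. Over all 15391 genes, in both directions together, the count was 828, 747, 362, 3268, 572, 544 and 530 in the same order, against 655 with all libraries. Every IR+LYC library lay below every IR library in 10 members, against 3.2% of all genes, and above in 0, against 4.25%. The median difference was -0.35 for the members and -0.01 for all genes, and it was above 0 for 6 of 43 members and 48.4% of all genes. Without IR+LYC 2 the members' median was -0.15, and 15 of 43 were above 0, against 10 without IR 2 and 3 without IR 3 or without IR+LYC 1. limma-voom called 0 members here too.

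Against the unirradiated control, 0 members were called in IR+LYC, beside 3 of all genes (0.0195%), and limma-voom called 0. At an unadjusted p under 0.05, 1 member was higher (6.6% of all genes) and 4 were lower (7.54%). Every IR+LYC library lay above every control in 1 member, against 8.87% of all genes, and below in 6, against 8.64%. The log2 difference was above 0 for 27 of 43 members and for 49.1% of all genes, with medians of 0.10 and -0.01. These values depend on single libraries. Without IR+LYC 1 the members' median was -0.07, and 9 of 43 were above 0, while without IR+LYC 3 it was 0.04. The count at an unadjusted p under 0.05 was 15 higher without IR+LYC 2 and 2 higher without IR 2. In both directions together it was 19 of 43 members without IR+LYC 2, beside 6950 of all 15391 genes. Without IR 2 it was 6 members, beside 2290 of all genes. With IR+LYC 1 and IR+LYC 3 alone, 12 of 43 members were called, as were 4120 of all genes (26.8%). The members were thus called at about the rate of all genes, and the count does not set them apart. Of the 12, Col1a1, Col1a2, Col5a2, Col6a3, Col12a1, Col16a1, Lamb2, Loxl1 and Loxl2 were higher and Col6a4, Col13a1 and Col23a1 lower in IR+LYC. The comparisons share the IR or control libraries with one another, so their values are not independent.

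**Figure D3:**
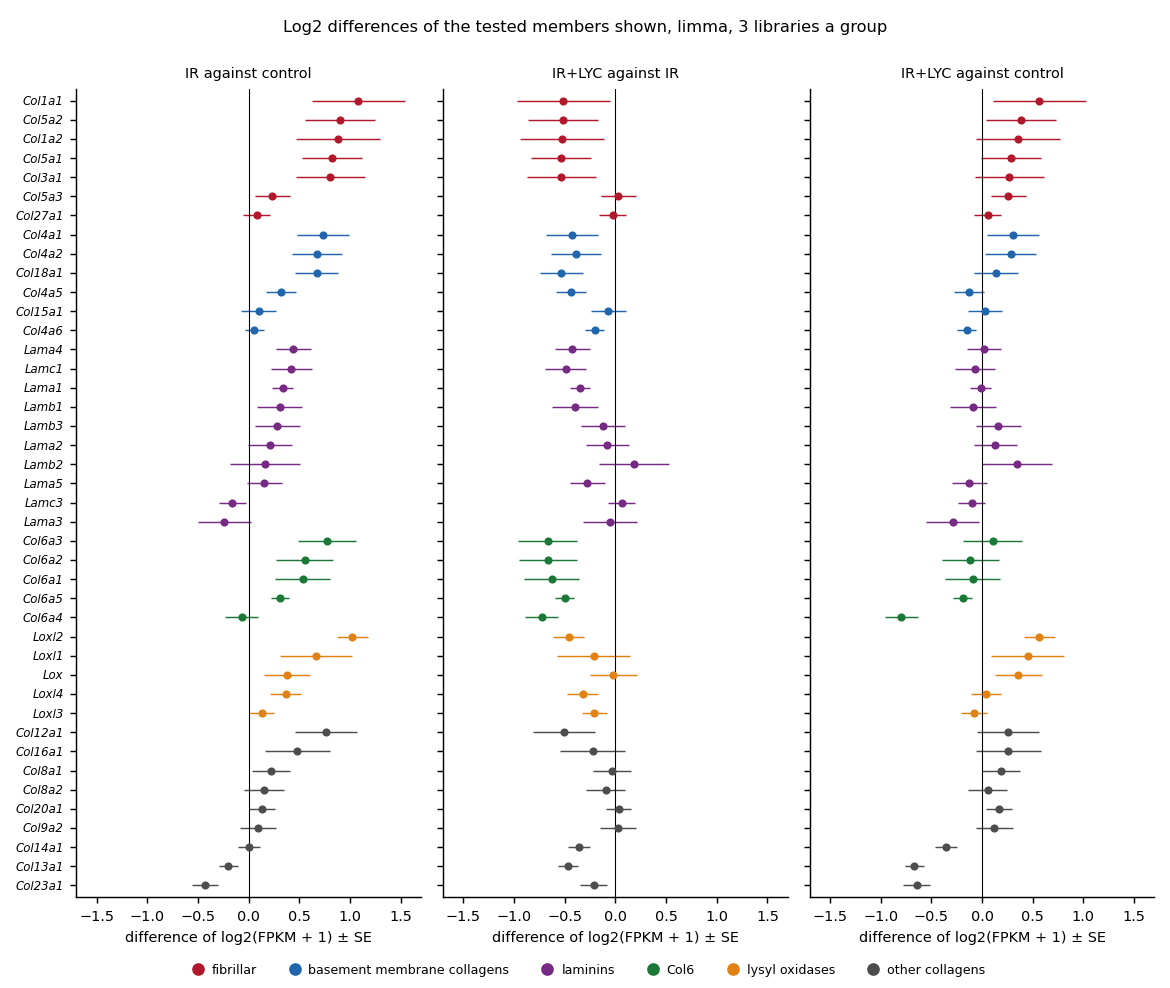
Log2 differences of the tested members, all but 1, with their standard errors (horizontal axis, log2(FPKM + 1)) in the 3 comparisons, coloured by family and ordered within a family by the difference in IR against control. The fibrillar chains reach 1.08 in the left panel, and most members lie left of 0 in the middle panel.

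Fibrillar collagens form the load-bearing fibrils, with type I and type III as the main chains and type V as the chains that regulate fibril diameter. All 7 tested fibrillar chains had a positive log2 difference in IR against control, with a median of 0.82, and in 5 every IR library was above every control, against 14.1% of all genes. Col1a1, which encodes the alpha 1 chain of type I collagen, was at 66.1, 14.5 and 33.6 FPKM in IR+LYC, at 38.7, 59.8 and 42.6 FPKM in IR, and at 21.2, 23.3 and 19.5 FPKM in control. All IR libraries were above the controls, while IR+LYC held both the highest and the lowest library of all. The log2 difference was 1.08 ± 0.46 (SE) in IR against control (limma, adjusted p = 0.588). In IR+LYC against IR it was -0.52 ± 0.46 (adjusted p = 0.994), and it was 0.03 without IR+LYC 2, -1.03 without IR+LYC 1 and -0.33 without IR 2.

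Col3a1, the single chain of type III collagen, was at 69.3, 23.8 and 38.6 FPKM in IR+LYC, at 49.6, 72.1 and 55.6 FPKM in IR, and at 33.7, 35.4 and 30.1 FPKM in control. Col1a2, the partner of Col1a1 in type I trimers, was at 33.9, 8.50 and 19.3 FPKM in IR+LYC, at 22.0, 34.0 and 23.9 FPKM in IR, and at 13.1, 14.7 and 13.6 FPKM in control. In both genes all IR libraries exceeded all controls and IR+LYC 2 was the lowest of 9. Their log2 differences in IR against control were 0.80 ± 0.34 for Col3a1 (adjusted p = 0.587) and 0.88 ± 0.41 for Col1a2 (adjusted p = 0.609).

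Col5a1 was at 8.82, 2.74 and 4.94 FPKM in IR+LYC, at 7.32, 8.90 and 7.03 FPKM in IR, and at 3.84, 4.09 and 3.89 FPKM in control. Its partner Col5a2, taken up after its values were seen, was at 7.97, 1.98 and 4.19 FPKM in IR+LYC, at 5.64, 8.13 and 5.68 FPKM in IR, and at 2.93, 2.97 and 2.98 FPKM in control. The control libraries of both chains were close together, and every IR library stood above them. The log2 differences in IR against control were 0.82 ± 0.30 for Col5a1 (adjusted p = 0.529) and 0.90 ± 0.35 for Col5a2 (adjusted p = 0.546). The other tested chains, Col5a3 and Col27a1, stayed at 0.408 to 1.37 FPKM with overlapping groups. Col24a1 peaked at 0.537 FPKM, Col11a1 and Col11a2 reached 0.0678 and 0.300 FPKM, and the cartilage collagen gene Col2a1 had 1 read in 1 control library.

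The promoters of Col1a2 and Col3a1 are shown because these chains varied side by side through the 9 libraries, and that of Col6a1 as the member with the highest mean level. Each is the 250 bases before the start of the RefSeq transcript (GRCm38.p6), read 5′ to 3′ on the gene's strand, with 3 motifs in capitals where they match on either strand. These are the CCAAT box, searched by those letters, the core of the GC box, searched as GGGCGG, and the core of the TATA box, searched as TATAAA. The motifs do not overlap one another here. The deposited table starts some of these genes elsewhere. Col1a2 begins there at 4504814, so its window lies inside the gene as counted. Col6a1, on the minus strand, begins there at 76726168, within its window.
Col1a2, chr6:4505368-4505617, plus strand: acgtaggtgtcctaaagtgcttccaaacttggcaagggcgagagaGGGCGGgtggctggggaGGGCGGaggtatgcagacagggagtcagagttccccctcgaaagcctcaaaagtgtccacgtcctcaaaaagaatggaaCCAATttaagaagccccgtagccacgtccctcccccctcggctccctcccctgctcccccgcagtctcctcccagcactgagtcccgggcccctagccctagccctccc
Col3a1, chr1:45311288-45311537, plus strand: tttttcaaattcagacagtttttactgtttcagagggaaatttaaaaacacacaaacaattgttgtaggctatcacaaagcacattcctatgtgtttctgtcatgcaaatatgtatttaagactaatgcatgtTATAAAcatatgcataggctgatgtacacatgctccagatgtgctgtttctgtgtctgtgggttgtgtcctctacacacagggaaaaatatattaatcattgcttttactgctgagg
Col6a1, chr10:76726045-76726294, minus strand: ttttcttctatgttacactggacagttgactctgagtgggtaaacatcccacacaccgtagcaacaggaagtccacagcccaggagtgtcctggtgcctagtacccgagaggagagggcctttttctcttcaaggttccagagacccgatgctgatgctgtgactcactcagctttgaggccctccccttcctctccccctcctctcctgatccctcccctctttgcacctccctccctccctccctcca
The Col1a2 window holds the GC box core at 2 places and the CCAAT box at 1, the Col3a1 window holds the TATA box core at 1, and none of these letters are in the Col6a1 window. Of the 60 members 41 matched a RefSeq promoter. The GC box core was in 24 of these 41 windows (58.5%), against 32.9% of 27025 genes. The CCAAT box was in 13 (31.7%, against 34.5%) and the TATA box core in 5 (12.2%, against 13%). A match describes the letters in the window and not a binding site.

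Basement membrane collagens include the type IV chains, which form the network of the sheet itself, and the proteoglycan collagens XV and XVIII on its stromal side. All 6 tested members had a positive log2 difference in IR against control, with a median of 0.49, and in 4 every IR library was above every control, against 14.1% of all genes. Col4a1 was at 41.9, 19.2 and 23.2 FPKM in IR+LYC, at 32.4, 41.5 and 34.7 FPKM in IR, and at 21.5, 21.2 and 21 FPKM in control. Col4a2, its partner in the most widespread type IV trimer, was at 29.3, 13.2 and 17.4 FPKM in IR+LYC, at 23.2, 28.6 and 23.9 FPKM in IR, and at 15.5, 15.4 and 15.3 FPKM in control. The controls of both genes hardly differed from one another, and all IR libraries were above them. The log2 differences were 0.73 ± 0.26 for Col4a1 (adjusted p = 0.517) and 0.67 ± 0.25 for Col4a2 (adjusted p = 0.540).

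These partners lie head to head on chromosome 8, and their transcripts start on opposite strands within an overlap of 22 bases, shown because reads from this stretch belong to both genes.
Shared start of Col4a1 and Col4a2, chr8:11312805-11312826 of GRCm38.p6, plus strand: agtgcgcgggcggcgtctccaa
The last of these bases is the first base of the Col4a1 transcript, which runs to the left, and the first is that of Col4a2, which runs to the right. The sources used here do not say whether the counting used strand, and the overlap is short beside gene lengths of 7464 and 6619 bases. Other type IV pairs are arranged the same way, with 71 bases between the starts of Col4a3 and Col4a4 and 1308 bases between those of Col4a5 and Col4a6.

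Col18a1, whose C-terminal fragment is endostatin, was at 11.6, 7.50 and 8.28 FPKM in IR+LYC, at 10.7, 18 and 12.7 FPKM in IR, and at 9.21, 7.54 and 7.57 FPKM in control. Its IR libraries lay above the controls but overlapped with IR+LYC. The log2 difference was 0.67 ± 0.21 in IR against control (adjusted p = 0.475) and -0.53 ± 0.21 in IR+LYC against IR (adjusted p = 0.994), or -0.34 without IR 2. Col15a1 showed no such separation, with 7.08, 4.0 and 5.15 FPKM in IR+LYC, 5.58, 5.63 and 5.59 FPKM in IR, and 6.03, 4.73 and 4.81 FPKM in control (log2 difference 0.10 ± 0.17 in IR against control, adjusted p = 0.824).

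Among the lower type IV chains, Col4a5 was taken up after its values were seen. It was at 1.93, 1.03 and 1.31 FPKM in IR+LYC, at 2.10, 2.49 and 2.16 FPKM in IR, and at 1.86, 1.35 and 1.65 FPKM in control, so that the IR libraries stood above both other groups. Its log2 difference was 0.31 ± 0.15 in IR against control (adjusted p = 0.609) and -0.44 ± 0.15 in IR+LYC against IR (adjusted p = 0.994). Its neighbour Col4a6 was at 0.390 to 0.721 FPKM. Col4a3 and Col4a4, chains known from the kidney glomerulus, and the epithelial anchoring collagen genes Col7a1 and Col17a1 were untested, with 0.365 FPKM as their highest value.

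Laminins are trimers of an alpha, a beta and a gamma chain that begin the assembly of basement membranes and bind integrins and dystroglycan. All 11 chains were tested; 9 had a positive log2 difference in IR against control, and in 4 every IR library was above every control, against 14.1% of all genes. One of the 4, Lama1, passed the minimum level only in IR. The median was 0.28. Lamc1, the gamma chain of most laminins, was at 13.9, 7.04 and 10.4 FPKM in IR+LYC, at 14.0, 15.6 and 14.1 FPKM in IR, and at 11, 10.1 and 10.8 FPKM in control. Lamb1, a beta chain, was at 12.9, 5.95 and 9.89 FPKM in IR+LYC, at 11.7, 12.9 and 12.6 FPKM in IR, and at 10.4, 8.90 and 10.2 FPKM in control. The IR libraries of both chains lay above the controls, and for Lamc1 also above every IR+LYC library. Lamc1 differed by 0.42 ± 0.20 in IR against control (adjusted p = 0.615), and by -0.49 ± 0.20 in IR+LYC against IR (adjusted p = 0.994), or -0.26 without IR+LYC 2. Lamb1 differed by 0.30 ± 0.23 in IR against control (adjusted p = 0.667).

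Lamb2, the beta chain prominent in basement membranes of vessels and muscle, was at 10.6, 2.76 and 6.59 FPKM in IR+LYC, at 5.17, 5.66 and 4.51 FPKM in IR, and at 4.24, 4.82 and 4.33 FPKM in control. Here the groups overlapped, and the IR+LYC libraries spanned all others (log2 difference 0.16 ± 0.35 in IR against control, adjusted p = 0.862, or 0.10 without IR 2). Lamb2 differed by 0.34 ± 0.35 in IR+LYC against control (adjusted p = 0.586), by 0.78 without IR+LYC 2 (adjusted p = 0.0279) and by -0.03 without IR+LYC 1. Without IR+LYC 2, 26.8% of all genes were called in that comparison.

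Among the alpha chains, Lama4, a chain of vessels and muscle, and Lama1, a chain mainly of embryonic tissue, were taken up after their values were seen. Lama4 was at 3.97, 2.06 and 3.33 FPKM in IR+LYC, at 4.13, 4.5 and 4.62 FPKM in IR, and at 3.25, 2.66 and 3.07 FPKM in control. Lama1 was at 0.351, 0.176 and 0.316 FPKM in IR+LYC, at 0.552, 0.753 and 0.586 FPKM in IR, and at 0.317, 0.312 and 0.243 FPKM in control. In both the 3 IR libraries were the highest of the 9. Lama4 differed by 0.44 ± 0.17 in IR against control (adjusted p = 0.546) and by -0.42 ± 0.17 in IR+LYC against IR (adjusted p = 0.994), or -0.22 without IR+LYC 2. Lama1 passed the minimum level only in IR, so its values are a description. Lama3 and Lamb3, chains of epithelial basement membranes, were at 0.879 to 2.91 and 1.98 to 4.49 FPKM with overlapping groups. So were Lama5 at 2.83 to 5.53 FPKM, Lama2 at 0.542 to 1.93 FPKM and Lamc3 at 0.314 to 0.741 FPKM.

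**Figure D4:**
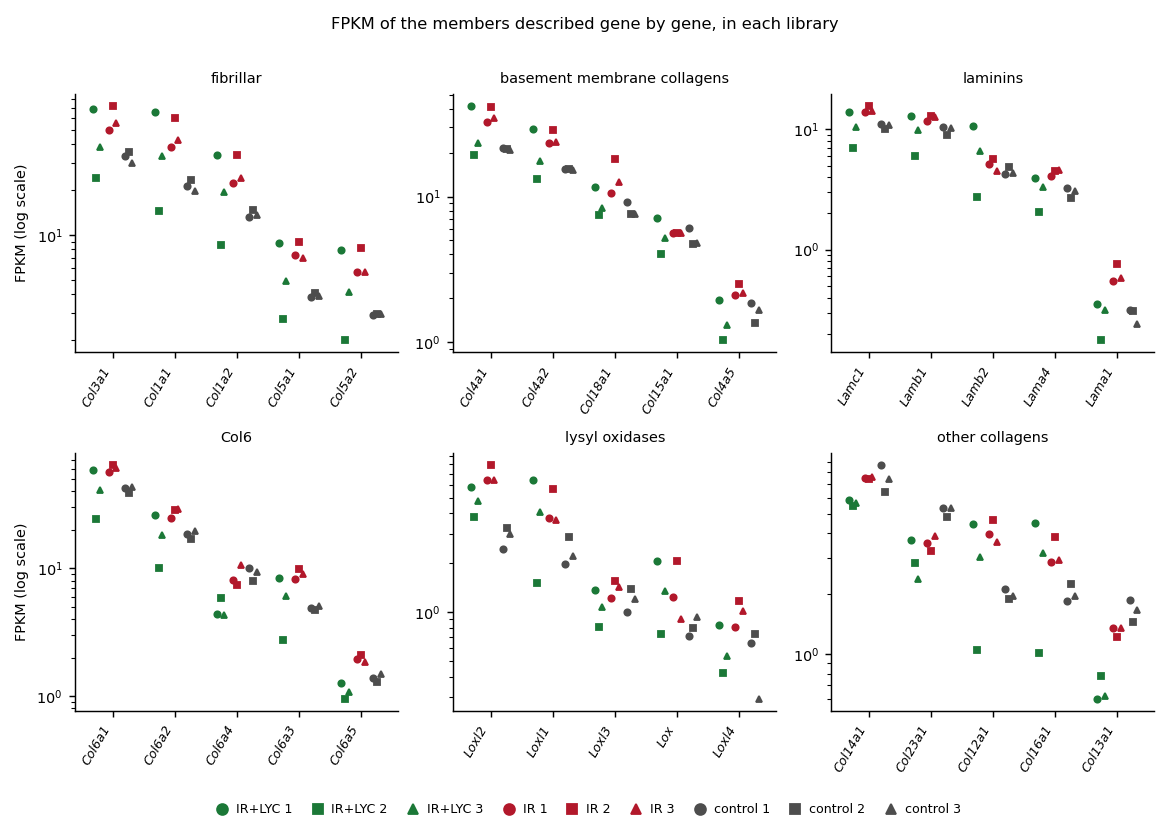
FPKM (log scale) of the members described gene by gene, 1 panel per family, with IR+LYC left of IR and IR left of control for each gene and the marker shape giving the library number. IR libraries lie above controls in most genes, Col6a4 and Col13a1 are lowest in IR+LYC, and the IR+LYC libraries are the most scattered.

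Type VI collagen forms beaded filaments around cells; the classical trimer holds alpha 1, alpha 2 and alpha 3, and alpha 4, alpha 5 and alpha 6 are later described chains that can take the place of alpha 3. Col6a1 was at 58.5, 24.3 and 41.1 FPKM in IR+LYC, at 56.9, 64.6 and 60.4 FPKM in IR, and at 42.3, 38.9 and 43.4 FPKM in control. Col6a2 was at 26.1, 10.1 and 18.1 FPKM in IR+LYC, at 24.9, 28.3 and 29.2 FPKM in IR, and at 18.6, 17.0 and 19.7 FPKM in control. Col6a3 was at 8.42, 2.75 and 6.08 FPKM in IR+LYC, at 8.26, 9.85 and 8.99 FPKM in IR, and at 4.85, 4.68 and 5.08 FPKM in control. In all 3 the IR libraries were above the controls, and 1 IR+LYC library reached the IR range.

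The log2 differences in IR against control were 0.53 ± 0.27 for Col6a1 (adjusted p = 0.629), 0.55 ± 0.28 for Col6a2 (adjusted p = 0.630) and 0.77 ± 0.29 for Col6a3 (adjusted p = 0.543). They were -0.63 ± 0.27, -0.66 ± 0.28 and -0.67 ± 0.29 in the same order for IR+LYC against IR, each with an adjusted p of 0.994. Without IR+LYC 2 those values were -0.30, -0.32 and -0.29.

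Col6a4, Col6a5 and Col6a6 lie next to one another on chromosome 9, between 105687809 and 106096783. Col6a4 was at 4.39, 5.80 and 4.27 FPKM in IR+LYC, at 8.02, 7.34 and 10.6 FPKM in IR, and at 10.0, 7.96 and 9.26 FPKM in control. All IR+LYC libraries were below all others, and IR and control overlapped. Col6a4 differed by -0.73 ± 0.16 in IR+LYC against IR (adjusted p = 0.994) and by -0.80 ± 0.16 in IR+LYC against control (adjusted p = 0.202). Without IR+LYC 2, its highest IR+LYC library, the second of these was -0.91 (adjusted p = 0.0206, where 26.8% of all genes were called). In IR against control it was -0.07 ± 0.16 (adjusted p = 0.873), and 0.11 when scaled by the recovered reads of each library.

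Col6a5, taken up after its values were seen, was at 1.27, 0.948 and 1.08 FPKM in IR+LYC, at 1.96, 2.09 and 1.84 FPKM in IR, and at 1.38, 1.3 and 1.5 FPKM in control. The groups did not overlap in any pair, with IR above control and IR+LYC below both. Its log2 difference was -0.50 ± 0.09 in IR+LYC against IR (adjusted p = 0.994), and 0.31 ± 0.09 in IR against control (adjusted p = 0.418). It was -0.19 ± 0.09 in IR+LYC against control (adjusted p = 0.367). Col6a6 was untested, with 1 to 4 reads in each library.

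Lysyl oxidases begin the crosslinking of collagen and elastin, and Loxl2 is known to act on type IV collagen of basement membranes. All 5 had a positive log2 difference in IR against control, with a median of 0.38, and in 3 every IR library was above every control, against 14.1% of all genes. Loxl2 was at 5.77, 3.81 and 4.77 FPKM in IR+LYC, at 6.36, 7.94 and 6.41 FPKM in IR, and at 2.42, 3.25 and 3.01 FPKM in control. Its 3 groups did not overlap, with IR highest, IR+LYC between and control lowest. The mean was 4.78 ± 0.98 FPKM in IR+LYC, 6.90 ± 0.90 FPKM in IR and 2.89 ± 0.43 FPKM in control (SD, n = 3 each).

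Loxl2 differed by 1.02 ± 0.15 in IR against control, with the smallest adjusted p of the members in that comparison (0.142). Over the alternatives its adjusted p ran from 0.0249 to 0.448, and it was 0.0306 in a fit of IR and control alone. That fit called 4 members, Loxl2, Col5a1, Col6a3 (each 0.0306) and Col12a1 (0.0343), against 0.65% of all genes. With IR+LYC 2 left out of the fit of 3 groups, Loxl2 and Col6a3 (0.0475) were called, against 0.637% of all genes. Neither choice changes an IR or control value, but each changes the spread that the test uses. Loxl2 differed by -0.46 ± 0.15 in IR+LYC against IR (adjusted p = 0.994). It differed by 0.56 ± 0.15 in IR+LYC against control (adjusted p = 0.294), and by 0.69 without IR+LYC 2 (adjusted p = 0.0242). Without IR+LYC 2, 26.8% of all genes were called in IR+LYC against control.

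Loxl1, which acts on elastic fibres, was at 6.37, 1.49 and 4.11 FPKM in IR+LYC, at 3.73, 5.67 and 3.64 FPKM in IR, and at 1.97, 2.87 and 2.21 FPKM in control. Lox, the first described enzyme of the family, was at 2.06, 0.737 and 1.34 FPKM in IR+LYC, at 1.23, 2.05 and 0.907 FPKM in IR, and at 0.709, 0.794 and 0.925 FPKM in control. Loxl1 separated IR from control and Lox did not, since IR 3 lay under the highest control. The log2 differences in IR against control were 0.66 ± 0.36 for Loxl1 (adjusted p = 0.632) and 0.38 ± 0.23 for Lox (adjusted p = 0.644), the second of which was 0.19 without IR 2.

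Loxl3 was at 1.35, 0.813 and 1.08 FPKM in IR+LYC, at 1.22, 1.53 and 1.42 FPKM in IR, and at 1.0, 1.37 and 1.20 FPKM in control. Loxl4 was at 0.831, 0.421 and 0.542 FPKM in IR+LYC, at 0.809, 1.16 and 1.01 FPKM in IR, and at 0.648, 0.731 and 0.293 FPKM in control. IR and control overlapped for Loxl3 and did not for Loxl4. The log2 differences were 0.13 ± 0.12 (adjusted p = 0.710) for Loxl3 and 0.36 ± 0.15 (adjusted p = 0.581) for Loxl4. Loxl3 differed by 0.06 without control 1 and by 0.08 without IR 2, and Loxl4 by 0.24 without control 3.

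The other collagens hold the fibril-associated chains, network-forming chains and membrane-spanning chains. Of 9 tested, 3 had every IR library above every control, against 14.1% of all genes, and 2 had every IR library below, against 14%. One of the 3, Col8a1, passed the minimum level in 4 libraries, none of them controls. The median log2 difference was 0.13. Col14a1, a fibril-associated collagen, was at 5.85, 5.44 and 5.61 FPKM in IR+LYC, at 7.47, 7.44 and 7.56 FPKM in IR, and at 8.75, 6.38 and 7.47 FPKM in control. Its IR+LYC libraries were close together and under all others. Col14a1 differed by -0.36 ± 0.11 in IR+LYC against IR (adjusted p = 0.994) and by -0.35 ± 0.11 in IR+LYC against control (adjusted p = 0.323), but by 0.00 ± 0.11 in IR against control (adjusted p = 0.994).

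The members that follow were taken up after their values were seen. Col13a1, a transmembrane collagen, was at 0.599, 0.784 and 0.622 FPKM in IR+LYC, at 1.35, 1.22 and 1.35 FPKM in IR, and at 1.85, 1.45 and 1.65 FPKM in control. Col23a1, another transmembrane collagen, was at 3.69, 2.84 and 2.37 FPKM in IR+LYC, at 3.59, 3.26 and 3.85 FPKM in IR, and at 5.32, 4.80 and 5.33 FPKM in control. For Col13a1 the groups stood in order without overlap, with IR+LYC lowest and control highest. For Col23a1 control was above the other groups, which overlapped.

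Col13a1 differed by -0.20 ± 0.10 in IR against control (adjusted p = 0.615), by -0.47 ± 0.10 in IR+LYC against IR (adjusted p = 0.994), and by -0.67 ± 0.10 in IR+LYC against control (adjusted p = 0.183). Col23a1 differed by -0.43 ± 0.13 (adjusted p = 0.429), -0.22 ± 0.13 (adjusted p = 0.994) and -0.65 ± 0.13 (adjusted p = 0.202) in the same comparisons. The second of these was -0.34 without IR+LYC 1 and -0.10 without IR+LYC 3. Without IR+LYC 2 the differences from control were -0.72 for Col13a1 (adjusted p = 0.0163) and -0.63 for Col23a1 (adjusted p = 0.0281). That fit called 26.8% of all genes in IR+LYC against control.

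Col12a1, a fibril-associated collagen, was at 4.44, 1.05 and 3.03 FPKM in IR+LYC, at 3.96, 4.62 and 3.61 FPKM in IR, and at 2.10, 1.88 and 1.95 FPKM in control. Col16a1, of the same class, was at 4.47, 1.01 and 3.20 FPKM in IR+LYC, at 2.87, 3.82 and 2.93 FPKM in IR, and at 1.84, 2.23 and 1.94 FPKM in control. Both had IR above control, and IR+LYC on both sides of the controls. The log2 differences in IR against control were 0.76 ± 0.31 for Col12a1 (adjusted p = 0.563) and 0.48 ± 0.32 for Col16a1 (adjusted p = 0.660). Both were 0.26 in IR+LYC against control, with adjusted p of 0.644 and 0.658. Without IR+LYC 2 they were 0.66 and 0.68 (adjusted p = 0.0268 and 0.0270), and without IR+LYC 1 they were -0.05 and -0.05. Against control, 26.8% of all genes were called without IR+LYC 2. The remaining tested chains, Col8a1, Col8a2, Col9a2 and Col20a1, were at 0.106 to 1.45 FPKM.

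Of the 43 tested members, the 10 with every IR+LYC library under every IR library were Col6a4, Col6a5, Col14a1, Col13a1, Loxl2, Lamc1, Lama4, Lama1, Col4a5 and Col4a6, and they come from 5 of the 6 families. Lama1 is among them although it passed the minimum level only in IR. Over all 60 members there were 12, with the untested Col22a1 and Col24a1. No tested fibrillar chain is among the 10. Of these 10, Col4a6, Col6a4, Col6a5, Col13a1 and Col14a1 also had every IR+LYC library under every control. Leaving out IR+LYC 2 moved the differences from IR of Lamc1, Lama4 and Col6a1 to Col6a3 by more than 1.5 times. For Col6a4, Col6a5, Col13a1, Col14a1, Loxl2 and Col4a5 the values without it were -0.84, -0.45, -0.52, -0.34, -0.33 and -0.32. Since every IR+LYC library of the 10 genes lay under every IR library, leaving out 1 library could not change their sign. IR+LYC 2 was the highest IR+LYC library of Col6a4 and Col13a1, so their differences had to grow without it.

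Ratios of 2 members within a library do not depend on how the libraries are scaled. Some of the pairs are partner chains, while Col3a1 with Col1a1, Lamb1 with Lamb2 and Loxl2 with Loxl1 are not. Col1a1 over Col1a2 was 1.95, 1.71 and 1.74 in IR+LYC, 1.76, 1.76 and 1.78 in IR, and 1.63, 1.59 and 1.44 in control. Both irradiated groups lay above all controls, although the Col1a1 level itself varied widely in IR+LYC. Each of these comparisons with control gave p = 0.1 in a two-sided exact permutation test, the smallest that 3 against 3 can give, and 0.3 after adjustment over the 21 comparisons of 7 ratios. Col3a1 over Col1a1 was 1.05, 1.64 and 1.15 in IR+LYC, 1.28, 1.21 and 1.31 in IR, and 1.59, 1.52 and 1.54 in control. The IR libraries were under all controls (exact p = 0.1, adjusted 0.3), and IR+LYC 2 was on the control side.

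Col6a1 over Col6a2, whose genes are neighbours on chromosome 10, kept to 2.07 to 2.40 in all libraries with overlapping groups, and Col4a1 over Col4a2 to 1.33 to 1.45. In the second, IR was above control with means of 1.43 ± 0.03 in IR and 1.38 ± 0.01 in control (SD, n = 3 each, exact permutation p = 0.1, adjusted 0.3). Col5a1 over Col5a2 averaged 1.22 ± 0.14 in IR+LYC, 1.21 ± 0.10 in IR and 1.33 ± 0.04 in control, and every IR library was under every control (exact permutation p = 0.1, adjusted 0.3). Lamb1 over Lamb2 was 1.21, 2.15 and 1.5 in IR+LYC, 2.26, 2.28 and 2.80 in IR, and 2.46, 1.85 and 2.36 in control, so that IR+LYC lay under IR (exact permutation p = 0.1, adjusted 0.3). Loxl2 over Loxl1 was 0.905, 2.55 and 1.16 in IR+LYC, 1.7, 1.4 and 1.76 in IR, and 1.23, 1.13 and 1.36 in control, with IR above control (exact permutation p = 0.1, adjusted 0.3).

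**Figure D5:**
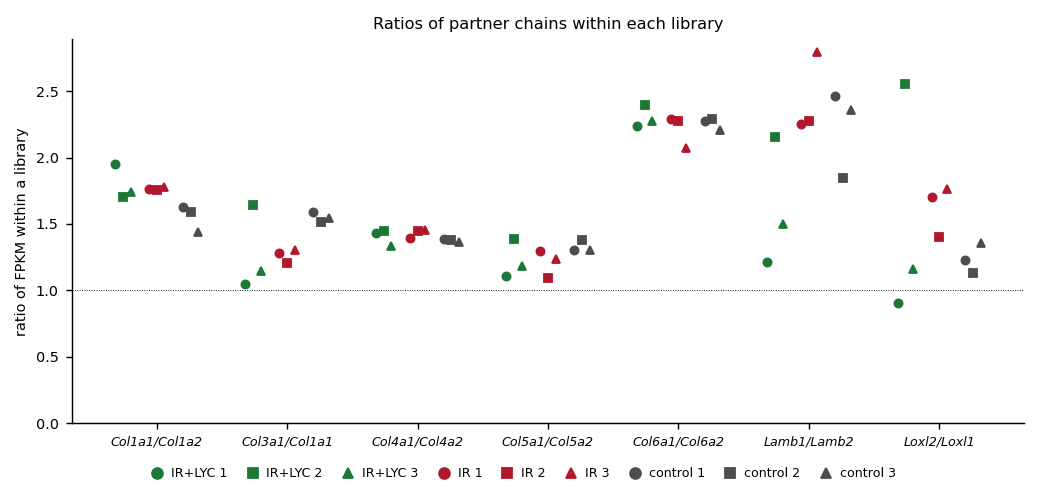
Ratio of the FPKM of 2 partner chains within each library (vertical axis, from 0), for 7 pairs, with IR+LYC left of IR and IR left of control. Col1a1/Col1a2 is above all controls in both irradiated groups, while Col4a1/Col4a2 and Col6a1/Col6a2 hardly vary.

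Other genes of the matrix pathways were taken from 6 lists, and none of their members was called in any of the 3 comparisons by limma or limma-voom over all genes. In IR against control, every IR library was above every control in 11 of 22 tested genes of collagen processing, 10 of 18 of matrix turnover, and 7 of 16 other basement membrane genes. The same held for 8 of 12 elastic fibre genes, 10 of 16 fibril-associated glycoproteins and proteoglycans, and 4 of 13 receptors, against 14.1% of all genes. Every IR library was below every control in 1, 1, 2, 1, 0 and 3 genes in the same order, against 14% of all genes. At an unadjusted p under 0.05, 2, 6, 1, 2, 1 and 0 of these genes were higher (3.9% of all genes), and Ntn4 was lower (4.44% of all genes). These counts include Mmp12 and Vcan, which reached the minimum level in irradiated libraries only.

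Serpinh1, the collagen chaperone HSP47, was at 59.96, 28.4 and 46.8 FPKM in IR+LYC, at 42.0, 56.6 and 50.4 FPKM in IR, and at 29.2, 30.1 and 35.7 FPKM in control. It differed by 0.63 ± 0.26 in IR against control (adjusted p = 0.575), and the IR libraries were above the controls. The processing genes Fkbp14 and Ppib, both peptidyl-prolyl isomerases, differed by 0.44 ± 0.17 and 0.24 ± 0.10 (adjusted p = 0.543 and 0.594). Mmp12, macrophage elastase, was at 1.89, 0.200 and 0.577 FPKM in IR+LYC, at 1.45, 1.22 and 1.42 FPKM in IR, and at 0.0628, 0.0394 and 0.0854 FPKM in control. Its groups did not overlap between IR and control, nor between IR+LYC and control (1.15 ± 0.28 in IR against control). No control reached the minimum level of 0.5 FPKM, so Mmp12 was tested through its irradiated libraries alone and its values are a description. The metalloproteinase Mmp19 and the membrane-bound collagenase Mmp14 differed by 0.73 ± 0.25 and 0.60 ± 0.21 (adjusted p = 0.517 each).

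Ntn4, a netrin that binds laminin and loosens its network, stood the other way from most laminins. It was at 3.04, 4.26 and 4.06 FPKM in IR+LYC, at 2.43, 2.45 and 2.14 FPKM in IR, and at 3.84, 3.46 and 5.11 FPKM in control, so that IR was below both other groups without overlap. Ntn4 differed by -0.61 ± 0.15 in IR against control (adjusted p = 0.346) and by 0.51 ± 0.15 in IR+LYC against IR (adjusted p = 0.994). Nid1, which links laminin to type IV collagen, differed by 0.42 ± 0.18 in IR against control (adjusted p = 0.596), and Smoc1 by 0.49 ± 0.19 (adjusted p = 0.548), or 0.31 without IR 2. Of the elastic fibre genes, Emilin1, Fbln5 and Fbn1 differed by 0.59 ± 0.21, 0.48 ± 0.19 and 0.34 ± 0.16 (adjusted p = 0.524, 0.560 and 0.605).

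Lumican, a proteoglycan on the surface of collagen fibrils coded by Lum, was at 39.7, 5.17 and 24.9 FPKM in IR+LYC, at 26.9, 37.3 and 17.8 FPKM in IR, and at 9.54, 13.0 and 10.3 FPKM in control. IR lay above control, with a log2 difference of 1.20 ± 0.62 (adjusted p = 0.630). The related Ogn differed by 0.76 ± 0.37 (adjusted p = 0.615). The large proteoglycan Vcan differed by 0.50 ± 0.15, but its controls were at 0.209 to 0.286 FPKM, under the minimum level, so its values are a description. Of the receptors, the integrin chains Itga2 and Itgb1 differed by 0.48 ± 0.21 and 0.37 ± 0.17, and the collagen receptor of leukocytes Lair1 by 0.31 ± 0.15 (adjusted p = 0.594, 0.601 and 0.617). Lair1 differed by 0.18 without IR 2.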

How the data were processed

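Total RNA of 9 intestine libraries, 3 each of IR+LYC, IR and control, was analysed; groups come from the labels. The reads went through fastp and HISAT2 2.0.5, per the submitters' processing notes; the genome build, the counter and the fastp version are not given in the sources used here. The authors deposited 1 table of FPKM values. Multiplied by gene length, 202261 of 202261 values above 0 (100%) were whole reads within 0.01 read, and the divisor was 0.854 to 1.26 times the recovered reads, so a further scaling factor is in the deposited FPKM. Of the 60 members 59 have the coordinates of GENCODE M21 (GRCm38), on which positions are printed. Gene lengths are those of the table.

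Differences were tested on log2(FPKM + 1) with limma 3.58.1 in R 4.3.3 (moderated contrasts with a mean-variance trend, 6 residual and 8.18 total degrees of freedom), for genes with at least 0.5 FPKM in 3 libraries. A log2 difference on this scale understates changes of low genes. Ratios were tested with scipy 1.17.1. Promoters come from RefSeq (GRCm38.p6). Members by library are those with a mean of at least 5 FPKM and the 5 lysyl oxidases (21 genes), and 9 more were taken up after their values were seen; of each pathway list, up to 3 genes with the smallest p in IR against control are given. The families and lists were chosen with earlier results of these data known, and the members follow from their symbols. Marker lists of mesothelium, enteric glia, exocrine pancreas and skeletal muscle had sums of 3.41 to 15.2, 2.90 to 8.29, 3.03 to 8.56 and 5.26 to 16.2 FPKM. The values of 1 tested member are not reported here, though it is in the counts, sums and medians. The procedure was tested on simulated data. Python 3.11.15 with matplotlib 3.10.9 drew the figures.

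The alternatives were a pseudocount of 0.1, no filter, a minimum mean of 5 FPKM, median-ratio scaling, a fit of 2 groups only, no trend, a replicate block, limma-voom on recovered reads, and each library left out in turn. The median-ratio factor of the deposited values was 1.01 in all 9 libraries, so that setting could hardly change a result and is no check on scaling. In limma-voom the library sizes were the divisors of the deposited FPKM and not the recovered read totals. Scaling by recovered reads was added after seeing the data.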

Additional observations from a re-analysis of the deposited data

How the results depend on the processing

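The count of members called in IR against control, 0, was 4 in the fit of IR and control alone and 0 to 2 when 1 library was left out, the 2 without IR+LYC 2. In IR+LYC against control it was 0 to 12 with 1 library left out, and in IR+LYC against IR it was 0 throughout. The count of all genes called in IR against control, 3, was 0 with limma-voom, 1 with a mean of at least 5 FPKM, 7 without a filter, 100 in the fit of 2 groups, 1 with a pseudocount of 0.1, and 0 to 98 with 1 library left out. In IR+LYC against control, also 3, these were 0, 1, 6, 1, 0 and 0 to 4120, and 1 when scaled by recovered reads. That scaling moved the median of all genes by 0.15 in IR against control and by 0.18 in IR+LYC against control, and relative to all genes the members' median was 0.30 and 0.05, in place of 0.32 and 0.11. The cause of these changes was not tested beyond what each setting removes.

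With a replicate block, 0 members and 0 genes were called in each comparison. Same-numbered libraries correlated at -0.65 to 0.38 in their deviations from the group means, so the numbers were not taken to pair the samples. As 0 members were called without the block too, it could lose no call among them.

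Some differences changed sign with 1 library left out. Over the libraries left out, Col14a1 ran from -0.0974 to 0.103 and Col6a4 from -0.211 to 0.0285 in IR against control (0.112 for Col6a4 when scaled by recovered reads). Col1a1 ran from -1.03 to 0.0301 in IR+LYC against IR, and Col12a1, Col16a1 and Lamb2 ran from -0.0492 to 0.656, -0.046 to 0.676 and -0.0301 to 0.782 in IR+LYC against control. Of the log2 ratios in IR+LYC against IR, Col1a1/Col1a2 ran from -0.0345 to 0.0621, Col3a1/Col1a1 from -0.204 to 0.119, Col4a1/Col4a2 from -0.0534 to 0.0086, Col5a1/Col5a2 from -0.0796 to 0.0819 and Loxl2/Loxl1 from -0.655 to 0.094. Col6a1/Col6a2 ran from -0.0561 to 0.0166 in IR against control, and from -0.0007 to 0.0492 in IR+LYC against control, where Loxl2/Loxl1 ran from -0.272 to 0.477.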
